A study of Mus musculus with 2 samples.

Results

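The genes described here make, store, break down and move fatty acids and triglycerides, and they were chosen as a list of 37 mouse gene symbols. They were followed in liver RNA on 2 Agilent 2-colour arrays. All 37 symbols were matched, to 51 of the 39429 probes of the array design, and the named probes of the whole design covered 22788 genes. By role the 37 genes fall into 7 groups, which are regulators, precursor supply and de novo synthesis, desaturation and elongation, glycerolipid assembly, droplet coat and fusion, lipolysis, and uptake and export.

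One array held liver RNA of wild-type mice and the other that of AID transgenic mice, which carry a transgene for AID, the B-cell enzyme that turns cytosine into uracil in antibody genes. All mice had a C57BL/6 background. On either array the Cy5 channel was liver exposed for 6 months to thioacetamide in the drinking water, and the Cy3 channel was untreated liver of the matching genotype. Thioacetamide is a liver toxin that is used to cause fibrosis in rodents. Not given in the sources used here are the promoter that drives the transgene, the animals' sex, age and number, any pooling, their feeding and the hour of death. With 1 array for either genotype and dyes never swapped, no value below has a replicate or a test, and a dye effect cannot be told apart from the treatment. Levels are log2 normalized intensities of 1 gene's own probes, which cannot be set against those of another gene. Each ± gives an error that the scanner software set on its log ratio, in log2 units, which is technical and says nothing about mice.

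In liver, surplus citrate is split into acetyl-CoA, which acetyl-CoA carboxylase and fatty acid synthase turn into palmitate. Desaturases and elongases then modify the fatty acids, which are joined to glycerol, and the triglyceride is stored in droplets coated by perilipins or exported in lipoproteins. The transcription factors SREBP1c and ChREBP, which respond to insulin and to glucose, are known to drive much of this programme, so that its genes respond strongly to feeding.

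A gene was counted as higher or lower when its log2 value lay 1 or more from 0, a 2-fold change, and one of the channels compared had a probe signal well above background. All 37 genes were measured on both arrays, and 35 were well above background in all 4 channels. The exceptions were Cidea, which was dim in the treated wild-type liver, and Pnpla3, which was dim in both untreated livers. The spread between repeated spots was small, with a median SD of 0.07 over 399 probes with 10 spots on either array, against a median scanner error of 0.208 for the 37 genes.

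The livers differed in sex-linked transcripts and in some cell markers. Xist, the RNA of the inactive X chromosome, was at least 6.18-fold higher in treated than in untreated wild-type liver. The Y-linked gene Ddx3y was at least 17.6-fold lower there, while on the AID transgenic array it had a log2 ratio of -0.11 ± 0.20. The wild-type ratio, the difference between genotypes and the comparison of treated livers therefore hold this shift, and the AID transgenic ratio and the comparison of untreated livers do not. Hepatocyte markers were well above background in all 4 channels (7 of 7), with a summed log2 level of 19.36 to 19.54. With treatment 2 of 7 were at least 2-fold lower on both arrays, Apoa1 (-1.79 and -1.84) and Tat (-1.15 and -1.27). The list's median ratios were -0.25 in wild-type and -0.12 in AID transgenic liver. The adipocyte markers Adipoq and Plin1 were not well above background in any channel. The summed adipocyte level, most of it from Fabp4, lay between 10.12 and 10.45. Such sums follow the brightest probes of a list, and those of different lists cannot be set against each other. Macrophage markers summed to 12.68 in untreated and 12.92 in treated wild-type liver, and to 13.48 and 14.23 in the AID transgenic livers. The marker Marco carried most of that gap, with levels of 10.07 and 10.83 in wild-type and 12.60 and 13.25 in AID transgenic liver, while the median of the macrophage markers between untreated livers was 0.05, with 1 of 7 at 2-fold. With treatment the stellate cell markers had medians of -0.10 in wild-type and -0.31 in AID transgenic liver. Of these 5 markers, Acta2 alone reached 2-fold with treatment, in AID transgenic liver (-1.89). For AID transgenic over wild-type the list's median was 0.13 untreated, with Acta2 alone at 2-fold (1.41). In the treated livers it was -0.21, with Lrat alone at 2-fold (-1.56). In bulk liver RNA, fewer cells of a type and less RNA per cell cannot be told apart.

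Treatment moved few of the 37 genes past 2-fold, and 4 of them moved the same way on both arrays. In wild-type liver the desaturase gene Scd2 and the fatty acid transporter gene Cd36 were higher, which is 2 of 37, beside 1.86% of all 16655 genes measured. Lower were 5 of 37 (Thrsp, Scd1, Lpin1, Plin4 and Cidea), beside 1.65% of all genes. In AID transgenic liver Scd2 and Cd36 were again higher, 2 of 37 beside 1.22% of 16685 genes. Lower were 3 of 37 (Lpin1, Lpin2 and Plin4), beside 0.947% of all genes. The median log2 ratio of the 37 genes was -0.17 in wild-type and 0.05 in AID transgenic liver, where the median of all genes was 0.03 on either array. With median centring in place of the intensity-dependent loess normalization these medians became 0.42 and 0.56, against all-gene medians of 0.35 and 0.34. The signs of small ratios therefore depend on the normalization. The ratios of 29 genes stayed within 2-fold on both arrays.

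The shares called were 5.41% higher and 13.5% lower in wild-type liver and 5.41% and 8.11% in AID transgenic liver. The quartiles of the 37 genes were -0.70 and 0.34 in wild-type liver, against -0.15 and 0.22 for all genes, and -0.47 and 0.36 in AID transgenic liver, against -0.13 and 0.19. The list was thus spread more widely than all genes in both directions. Signs were shared by 25 genes, with 12 above 0 on both arrays and 13 below 0 on both, and 12 genes had opposite signs. Over all genes, counts of shared or opposite signs and of 2-fold changes on both arrays are not given here.

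**Figure D1:**
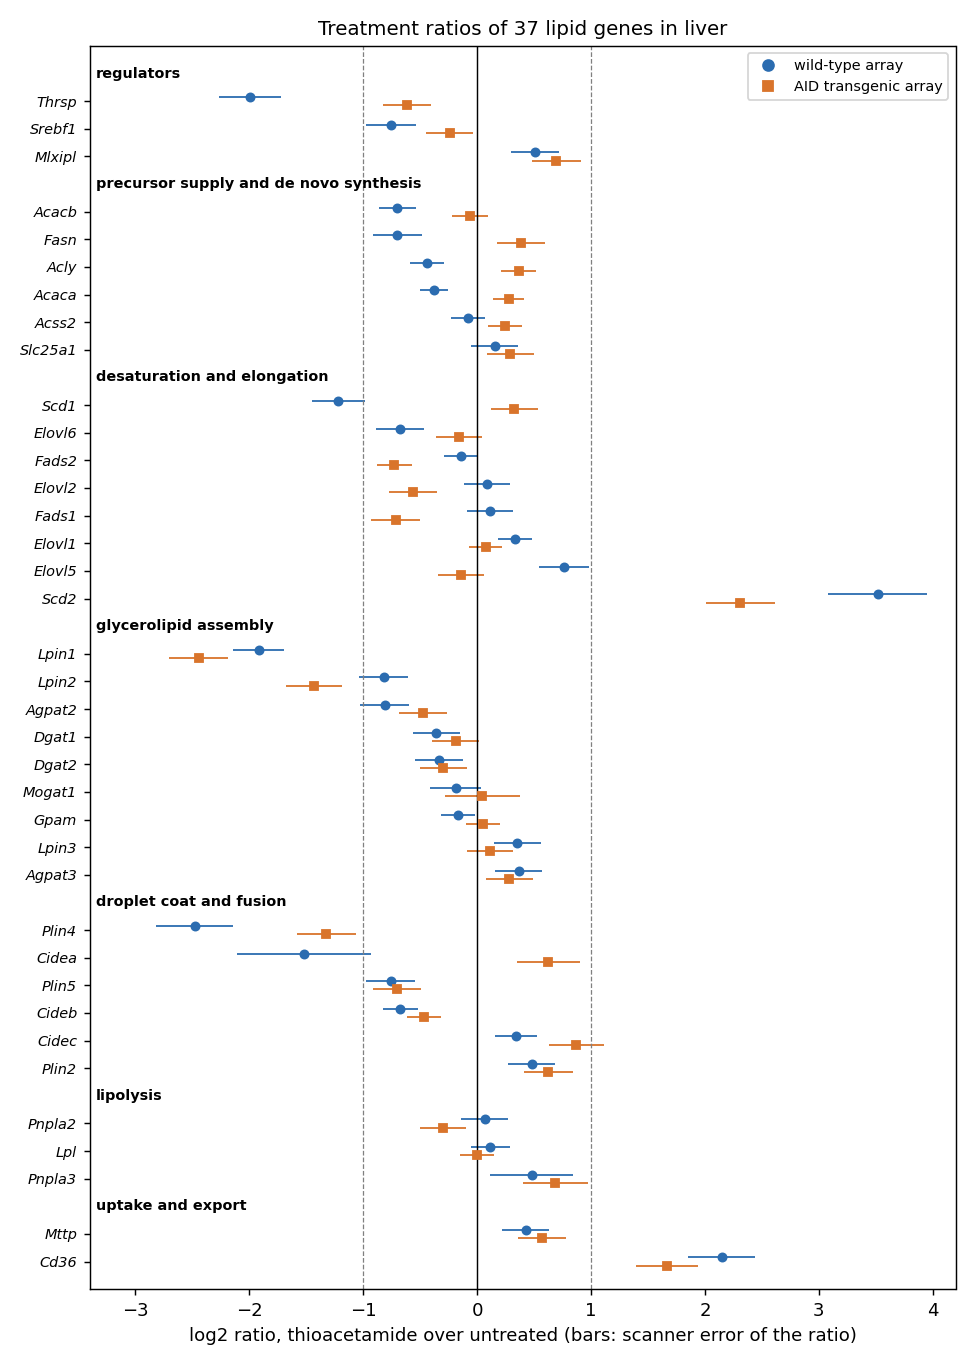
Log2 ratio of thioacetamide-treated over untreated liver (x axis) for each of the 37 genes, grouped by role and ordered by the wild-type value, with circles for the wild-type array and squares for the AID transgenic array. Bars are the scanner software's error of the ratio, and dashed lines mark 2-fold. Scd2 and Cd36 lie to the right of 2-fold and Lpin1 and Plin4 to the left on both arrays, while Acly, Acaca, Fasn, Scd1 and Cidea lie left of 0 for wild-type and right of 0 for AID transgenic liver.

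The regulator with the largest change was Thrsp, which encodes a nuclear protein known to promote fatty acid synthesis. Its log2 level was 15.45 in untreated and 13.46 in treated wild-type liver, and 13.90 in untreated and 13.29 in treated AID transgenic liver. The untreated wild-type liver stood above the other 3, which lay close together. Thrsp was 3.98-fold lower with treatment in wild-type liver (log2 ratio -1.99 ± 0.27) and had -0.62 ± 0.21 in AID transgenic liver. Srebf1, the gene of the SREBP1 transcription factors, also had the lower ratio in wild-type liver, with smaller values, at -0.76 ± 0.22 and -0.24 ± 0.21. Mlxipl, which encodes ChREBP, had values above 0 in both genotypes, 0.51 ± 0.21 and 0.69 ± 0.21. The median of the 3 regulators was -0.76 in wild-type and -0.24 in AID transgenic liver, and -0.10 and 0.41 with median centring.

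Genes of precursor supply and fatty acid synthesis were mostly below 0 in wild-type and above 0 in AID transgenic liver, and none of the 6 reached 2-fold on either array. In wild-type liver 5 of 6 had a ratio below 0 (median -0.41), and in AID transgenic liver 5 of 6 had one above 0 (median 0.28). With median centring 2 of 6 remained below 0 in wild-type liver, and 4 of 6 lay below the median of all genes. The difference, AID transgenic minus wild-type, was above 0 for 6 of 6 (median 0.65, and 0.60 with median centring).

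Fasn, the gene of fatty acid synthase itself, had log2 levels of 9.94 and 9.24 in untreated and treated wild-type liver and of 8.78 and 9.16 in the AID transgenic livers. The untreated livers were the highest and the lowest of the 4, and both treated livers lay between them. Its ratio was -0.70 ± 0.22 in wild-type and 0.39 ± 0.21 in AID transgenic liver, a difference of 1.09 ± 0.30. Acly, the ATP citrate lyase gene that supplies acetyl-CoA, had levels of 11.05, 10.61, 10.55 and 10.92 in untreated and treated wild-type and untreated and treated AID transgenic liver. Both of the livers in the middle of that range were treated, as with Fasn. The ratios of Acly were -0.44 ± 0.15 and 0.36 ± 0.15. Acaca, the carboxylase that makes the malonyl-CoA for synthesis, was read by 4 probes and had -0.38 ± 0.12 and 0.28 ± 0.13, with an SD between probes of 0.14 on either array. Its levels ran 9.65, 9.27, 9.34 and 9.61 in the same order of livers, a span well under 2-fold. The Acaca probes that start at chr11:84215093 and chr11:84215094 of mm9 read nearly the same bases. The 4 probes are therefore not independent readings, and their error may be understated. A further Acaca probe was dim in untreated AID transgenic liver. It had a ratio of 0.06 on that array, beside 0.34 to 0.36 for the other Acaca probes.

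The other 3 genes of the group showed less of this pattern. Acacb, the carboxylase whose malonyl-CoA is known to restrain fatty acid oxidation, had -0.70 ± 0.16 in wild-type and -0.06 ± 0.16 in AID transgenic liver. Acss2, which activates acetate, had -0.08 ± 0.15 and 0.24 ± 0.15. Slc25a1, the mitochondrial citrate carrier, had 0.15 ± 0.20 and 0.29 ± 0.21, both above 0. Between the untreated livers the log2 value of AID transgenic over wild-type was below 0 for 6 of 6 (median -0.40), and Fasn was the 1 gene at 2-fold. Between the treated livers it was above 0 for 4 and below 0 for 2, in a range of -0.16 to 0.34, and none reached 2-fold.

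**Figure D2:**
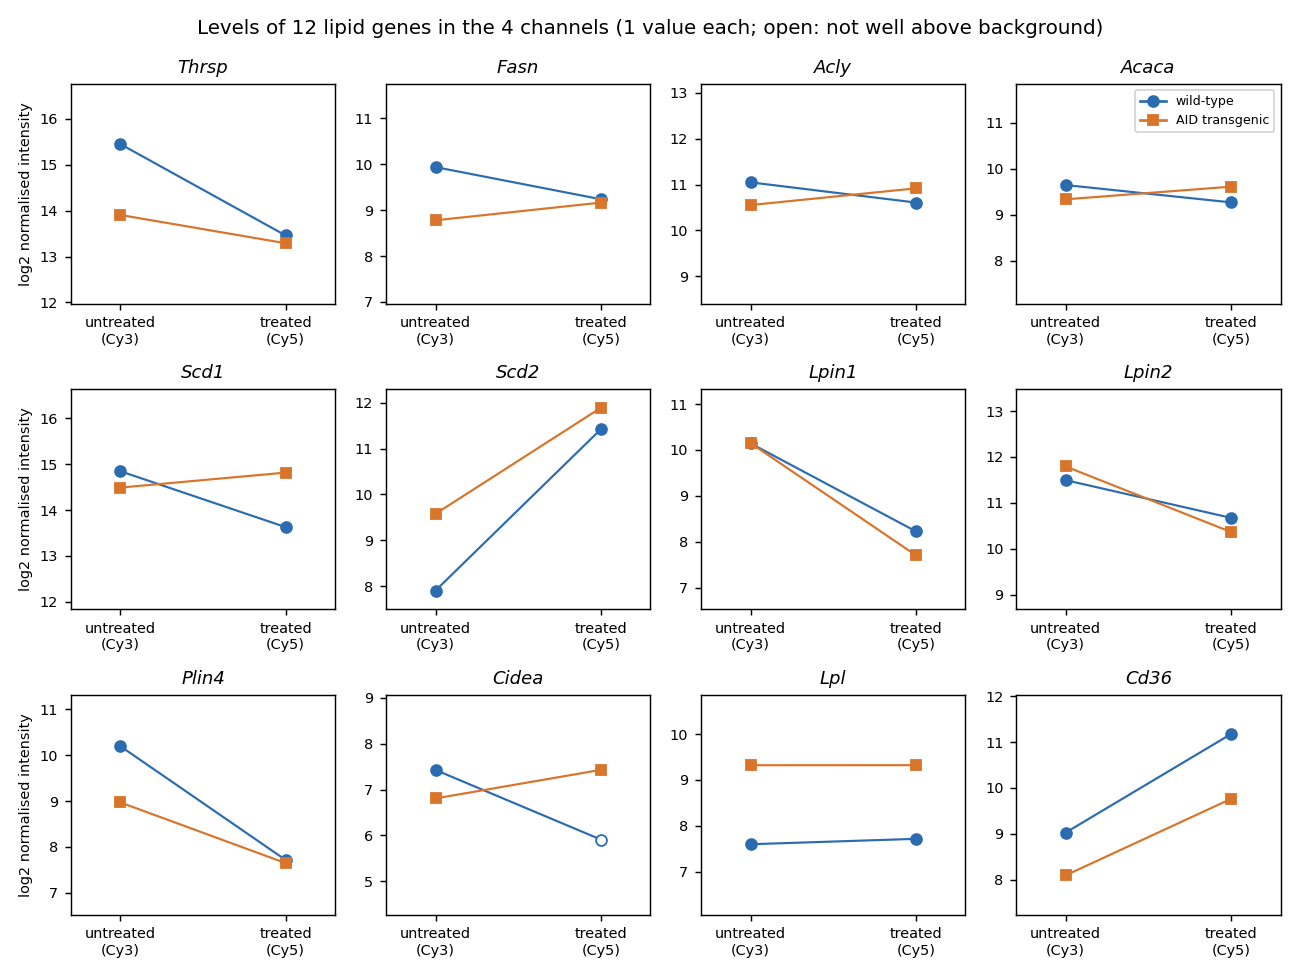
Log2 normalized intensity (y axis, same span in every panel) of 12 genes in untreated (Cy3) and treated (Cy5) liver, with circles for wild-type and squares for AID transgenic liver and open symbols for values not well above background. Each symbol is 1 channel of 1 array, without replicates. For Thrsp, Fasn and Plin4 the genotypes are apart in the untreated livers and close in the treated ones, for Scd1 and Cidea the gap is larger in the treated livers, and for Lpl it is alike in both.

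Thrsp, Fasn and Plin4 were the 3 genes at least 2-fold lower in untreated AID transgenic than in untreated wild-type liver. Their proximal promoters are shown because the 3 genes moved together in that comparison, and Thrsp and Fasn were chosen for it after their values were seen. Not shown is the promoter of Lpin1, a gene at least 2-fold lower with treatment on both arrays. Its window of 250 bases holds none of the 3 motifs counted below. The 250 bases before the start of each of the 3 genes shown, all on the minus strand, are given 5′ to 3′ from RefSeq on GRCm38.p6. They lie at chr7:97417551-97417800 for Thrsp, chr11:120824548-120824797 for Fasn and chr17:56109783-56110032 for Plin4, and capitals mark CCAAT or its reverse complement ATTGG.
Thrsp: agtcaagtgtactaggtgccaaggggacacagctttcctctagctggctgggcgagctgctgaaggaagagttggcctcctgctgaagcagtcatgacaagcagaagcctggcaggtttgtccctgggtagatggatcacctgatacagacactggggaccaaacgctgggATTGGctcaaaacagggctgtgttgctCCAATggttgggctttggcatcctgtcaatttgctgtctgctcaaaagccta
Fasn: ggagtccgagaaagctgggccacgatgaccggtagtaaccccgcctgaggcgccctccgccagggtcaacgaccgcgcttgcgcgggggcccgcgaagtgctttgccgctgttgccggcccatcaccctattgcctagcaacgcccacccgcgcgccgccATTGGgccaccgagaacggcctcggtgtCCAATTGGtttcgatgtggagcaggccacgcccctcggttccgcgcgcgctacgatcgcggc
Plin4: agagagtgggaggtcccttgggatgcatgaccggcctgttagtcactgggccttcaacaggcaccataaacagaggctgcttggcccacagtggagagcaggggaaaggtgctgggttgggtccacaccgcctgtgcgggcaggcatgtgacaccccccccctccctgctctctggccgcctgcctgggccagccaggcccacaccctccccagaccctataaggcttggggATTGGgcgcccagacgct
Each of the 3 windows holds at least 1 CCAAT box, the letters bound by the factor NF-Y, and in Fasn a CCAAT and an ATTGG overlap. Such promoters were in the table used for 30 of the 37 genes, of which 16 held CCAAT on either strand, beside 37.49% of 27025 genes. The E-box CACGTG, which holds the core letters bound by ChREBP and many other factors, was found in 4 of 30 (Mlxipl, Slc25a1, Elovl5 and Lpin2), beside 6.86% of all genes. TCACNCCAC, letters of the sterol regulatory element, was found in Mlxipl alone, beside 1.225%. The 3 printed windows hold neither CACGTG nor TCACNCCAC, and a match or its lack in this window says nothing of binding.

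Among the desaturases, the 2 stearoyl-CoA desaturase genes, which make monounsaturated fatty acids, went apart with treatment in wild-type liver. In AID transgenic liver both had a ratio above 0. Scd2 had log2 levels of 7.90 and 11.42 in untreated and treated wild-type liver and of 9.58 and 11.89 in the AID transgenic livers. Both treated livers were above both untreated ones, and the untreated wild-type liver was the lowest. Scd2 was 11.4-fold higher with treatment in wild-type liver (log2 ratio 3.52 ± 0.43) and 4.96-fold higher in AID transgenic liver (2.31 ± 0.30). Scd1, the main isoform of adult mouse liver, had levels of 14.85 and 13.63 in untreated and treated wild-type liver and of 14.49 and 14.82 in the AID transgenic livers. Here the treated wild-type liver stood alone below the other 3. Scd1 was 2.33-fold lower with treatment in wild-type liver (-1.22 ± 0.23), which became -0.44 with median centring, and had 0.33 ± 0.21 in AID transgenic liver.

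Each of the 2 genes was read by 1 probe, and the first 30 of 60 bases of each are given because the genes are close relatives. The Scd1 probe lies at chr19:44469387-44469446 on the minus strand and the Scd2 probe at chr19:44381024-44381083 on the plus strand of mm9, per the file headers.
Scd1: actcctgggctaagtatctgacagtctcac
Scd2: acatttggggatcctctgcagaggagtatt
The best local alignment of the whole probes held 17 identical of 22 aligned bases, so they do not share a long stretch.

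The desaturases and elongases of polyunsaturated fatty acids had differences in the other direction. Fads1, the delta-5 desaturase, had a ratio of 0.11 ± 0.20 in wild-type and -0.71 ± 0.22 in AID transgenic liver, a difference of -0.83 ± 0.30. Fads2, the delta-6 desaturase, had -0.14 ± 0.15 and -0.73 ± 0.16. Elovl5, an elongase of the same pathway, had levels of 12.50 and 13.26 in untreated and treated wild-type liver and of 13.08 and 12.94 in the AID transgenic livers, so that the untreated wild-type liver was the lowest. Its ratios were 0.76 ± 0.22 and -0.14 ± 0.20, and those of Elovl2, which acts on longer polyunsaturated chains, were 0.09 and -0.56. Elovl1, which elongates saturated and monounsaturated very long chains, had 0.33 and 0.08. Elovl6, which elongates palmitate, was below 0 on both arrays, at -0.68 ± 0.21 and -0.16 ± 0.20. Its difference of 0.52 ± 0.30 was above 0, as in the synthesis genes. In the group of 8, the difference was below 0 for 6 genes and above 0 for Scd1 and Elovl6 (median -0.62). None of Fads1, Fads2, Elovl2 and Elovl5 reached 2-fold in any comparison.

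In glycerolipid assembly the genes at 2-fold were Lpin1 and Lpin2. Lipins are phosphatidate phosphatases that make diacylglycerol, and Lpin1 is also known as a partner of PGC-1α in control of fatty acid oxidation. Lpin1 had log2 levels of 10.14 and 8.22 in untreated and treated wild-type liver and of 10.15 and 7.70 in the AID transgenic livers. The untreated livers were level with each other and both treated livers were lower. Lpin1 was 3.78-fold lower in wild-type liver (-1.92 ± 0.22) and 5.44-fold lower in AID transgenic liver (-2.44 ± 0.26). Its 2 probes had the same sign but differed in size, at -1.67 and -2.16 on the wild-type array and -1.56 and -3.33 on the AID transgenic array. The difference of -0.53 ± 0.34 between the genotypes rested on the second probe. The first 30 bases of each probe are given because the size of the Lpin1 change depends on which is read, at chr12:16542515-16542574 and chr12:16543695-16543754 of mm9 on the minus strand.
Lpin1 first probe: attatccatgaatgaggcctaatgacagtg
Lpin1 second probe: aggtctcatgtggtccacatagttcacagg

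Lpin2, which is prominent in liver, had levels of 11.49, 10.67, 11.79 and 10.36 in untreated and treated wild-type and untreated and treated AID transgenic liver. Both treated livers were again below both untreated ones. Its ratios were -0.82 ± 0.22 and -1.43 ± 0.24, the latter a 2.69-fold decrease that became -0.75 with median centring. Lpin3 had 0.35 and 0.11. Agpat2, an acyltransferase that makes phosphatidate, had -0.81 ± 0.22 and -0.48 ± 0.21, and its relative Agpat3 had 0.36 and 0.28. Dgat1 and Dgat2, which form triglyceride from diacylglycerol, had -0.36 and -0.19, and -0.33 and -0.30. Gpam, the first acyltransferase of the pathway, had -0.17 and 0.05, and Mogat1, a monoacylglycerol acyltransferase, had -0.19 and 0.05. In wild-type liver 7 of the 9 genes of assembly were below 0 (median -0.33), and in AID transgenic liver 5 of 9 (median -0.19). With median centring these medians were 0.24 and 0.37, or -0.11 and 0.03 relative to all genes.

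Among droplet coat and fusion genes, Plin4 was lower on both arrays. Perilipin 4 coats nascent droplets and is known mainly from adipocytes and muscle. Plin4 had log2 levels of 10.19 and 7.71 in untreated and treated wild-type liver and of 8.97 and 7.65 in the AID transgenic livers. The treated livers were level, and the untreated wild-type liver was the highest. Plin4 was 5.58-fold lower in wild-type liver (-2.48 ± 0.34) and 2.50-fold lower in AID transgenic liver (-1.32 ± 0.26, and -0.83 with median centring). Of the adipocyte markers, Fabp4 had levels of 9.71, 9.54, 9.80 and 10.01 in untreated and treated wild-type and untreated and treated AID transgenic liver, and Adipoq and Plin1 were dim in all 4. Cfd, 1 of the 6 adipocyte markers, was at least 2.15-fold lower with treatment in wild-type liver, where Plin4 was lower as well. It was also at least 1.57-fold lower in untreated AID transgenic than in untreated wild-type liver, as Plin4 was. Cfd was dim in both AID transgenic livers, so no ratio of it stands beside the Plin4 decrease on that array. With treatment Retn had -0.18 in wild-type and -0.10 in AID transgenic liver, and Lep had -0.01 and 0.02. The medians of the adipocyte markers measured were -0.18 and 0.02. Skeletal and heart muscle markers, 3 of which were measured, had median ratios of -0.31 in wild-type and -0.41 in AID transgenic liver. Between untreated livers their median was -0.02. Of them Tnnt2 had -0.26 and -1.44 with treatment, and 0.71 for AID transgenic over wild-type in untreated livers. The part of Cfd or of the muscle markers in the Plin4 values was not tested.

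Cidea, whose protein fuses droplets and is known from brown fat and steatotic liver, had levels of 7.43 in untreated wild-type, 6.81 in untreated AID transgenic and 7.43 in treated AID transgenic liver. In treated wild-type liver it was not well above background, with a measured level of 5.91. It was at least 2.86-fold lower with treatment in wild-type liver (measured ratio -1.52 ± 0.59), while the AID transgenic ratio was 0.62 ± 0.28. In treated livers it was at least 2.87-fold higher in AID transgenic than in wild-type.

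The main droplet coat gene of hepatocytes, Plin2, had 0.48 ± 0.21 and 0.63 ± 0.21, above 0 on both arrays. Plin5, which ties droplets to mitochondria, had -0.76 ± 0.21 and -0.70 ± 0.21, and Cideb, a hepatocyte protein of droplet fusion and lipoprotein loading, had -0.67 ± 0.15 and -0.47 ± 0.15. These 3 genes thus differed little between the arrays. Cidec, the droplet fusion gene induced in fatty liver, had 0.34 ± 0.18 and 0.87 ± 0.24, but its 2 probes disagreed. They had -0.06 and 0.74 on the wild-type array and 0.07 and 1.67 on the AID transgenic array. The first probe had levels of only 6.59 to 6.74 and was dim in untreated AID transgenic liver. The second, at 7.44 to 9.19, was well above background in every channel. By the second probe alone Cidec was more than 2-fold higher with treatment in AID transgenic liver. The difference between genotypes was above 0 for 6 of 6 genes of the group (median 0.37).

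Lipolysis genes showed no 2-fold change with treatment. Lpl, lipoprotein lipase, which acts at the vessel wall and is low in adult hepatocytes, had log2 levels of 7.60 and 7.72 in untreated and treated wild-type liver and of 9.32 in both AID transgenic livers. The genotypes did not overlap, and treatment ratios were 0.12 ± 0.17 and 0.00 ± 0.15. Lpl was 3.30-fold higher in AID transgenic than in wild-type untreated liver and 3.04-fold higher in the treated livers, by both of its probes. The macrophage marker Marco was also higher in AID transgenic liver, by 2.54 untreated and 2.42 treated on the log2 scale. Among the other macrophage markers Adgre1 reached 2-fold higher in the treated livers (1.07) and had 0.24 in the untreated ones, and the list median was 0.05 untreated and 0.45 treated, with Trem2 at -0.32 and -1.24 and Gpnmb at -0.25 and -1.25. The part of these cells in the Lpl difference was not tested. Pnpla2, adipose triglyceride lipase, had treatment ratios of 0.07 and -0.30. Pnpla3, a lipase and acyltransferase tied to fatty liver in humans, was dim in both untreated livers, and its 2 probes disagreed, at 0.05 and 0.91 on the wild-type array and 0.22 and 1.16 on the AID transgenic array. Their mean gave bounds of at least 1.39-fold and 1.61-fold higher in the treated livers, both under 2-fold.

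Of the genes of uptake and export, Cd36 was higher on both arrays. It encodes a receptor that takes up long-chain fatty acids. Cd36 had log2 levels of 9.03 and 11.17 in untreated and treated wild-type liver and of 8.09 and 9.76 in the AID transgenic livers. Both treated livers were above both untreated ones, and within each treatment the wild-type liver was the higher. Its promoter is shown as that of a gene higher on both arrays, with 1 CCAAT in capitals and neither of the other motifs, from RefSeq on GRCm38.p6 at chr5:17835897-17836146 on the minus strand.
Cd36: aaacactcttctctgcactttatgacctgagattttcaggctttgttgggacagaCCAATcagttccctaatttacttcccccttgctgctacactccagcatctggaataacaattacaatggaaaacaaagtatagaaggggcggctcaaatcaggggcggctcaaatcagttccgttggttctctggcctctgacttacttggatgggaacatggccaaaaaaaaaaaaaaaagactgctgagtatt
Treatment ratios were 4.43-fold in wild-type (2.15 ± 0.29) and 3.17-fold in AID transgenic liver (1.67 ± 0.27). Liver Cd36 is known to be higher in female than in male rodents, so the sex-linked shift of the wild-type array stands beside its wild-type value, and its part was not tested. The AID transgenic ratio holds no such shift. Endothelial markers, another site of Cd36, had ratios of -0.38 to -0.04 in wild-type and -0.20 to 0.48 in AID transgenic liver, and macrophage markers had medians of 0.18 and 0.62. The macrophage markers Trem2 and Gpnmb went with Cd36, with wild-type ratios of 1.54 and 1.46 (at least 2.76-fold for Gpnmb, dim when untreated), AID transgenic ratios of 0.63 and 0.46, and -1.24 and -1.25 for AID transgenic over wild-type in treated livers. Other macrophage markers went the other way between treated livers, with Marco at 2.42 and Adgre1 at 1.07. Of the 8 markers 2 were at least 2-fold higher and 2 lower there, and the median was 0.45. The part of these markers in the Cd36 values was not tested. Mttp, which loads lipid onto apolipoprotein B for export, had 0.43 and 0.57.

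The difference between the treatment ratios, AID transgenic minus wild-type, reached 2-fold upward for 5 of 37 genes (Thrsp, Fasn, Scd1, Plin4 and Cidea), beside 0.93% of 17099 genes. It reached 2-fold downward for Scd2 alone, 1 of 37 beside 1.05%. Over the 37 genes 24 differences were above 0 and 13 below, with a median of 0.17 where all genes had -0.00. The difference equals the genotype comparison of the treated livers minus that of the untreated livers, so it can be traced to either side.

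In untreated livers Scd2 and Lpl, 2 of the 36 genes measured there, reached 2-fold higher in AID transgenic than in wild-type, beside 0.308% of 14290 genes. Lower were 3 of 36 (Thrsp, Fasn and Plin4), beside 0.294%. Thrsp was 2.92-fold lower (log2 -1.54), Plin4 2.34-fold lower (-1.23) and Fasn had -1.16. Below 0 were 24 of the 36 genes, all 6 of precursor supply and synthesis and all 6 of droplet coat and fusion among them. The median was -0.27, against -0.00 for all genes, and this comparison holds no sex-linked shift.

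In treated livers 3 of 37 genes were at least 2-fold higher in AID transgenic than in wild-type (Scd1, Cidea and Lpl), beside 0.732% of 17071 genes. Lower was Cd36 alone, 1 of 37 beside 0.762%. Scd1 was 2.28-fold higher and Cd36 2.66-fold lower (log2 -1.41). The 3 genes that were apart in untreated livers were close here, with log2 values of -0.17 for Thrsp, -0.07 for Fasn and -0.07 for Plin4. By that arithmetic the larger term of the difference was the untreated comparison for Thrsp, Fasn and Plin4, and the treated comparison for Scd1 and Cidea.

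**Figure D3:**
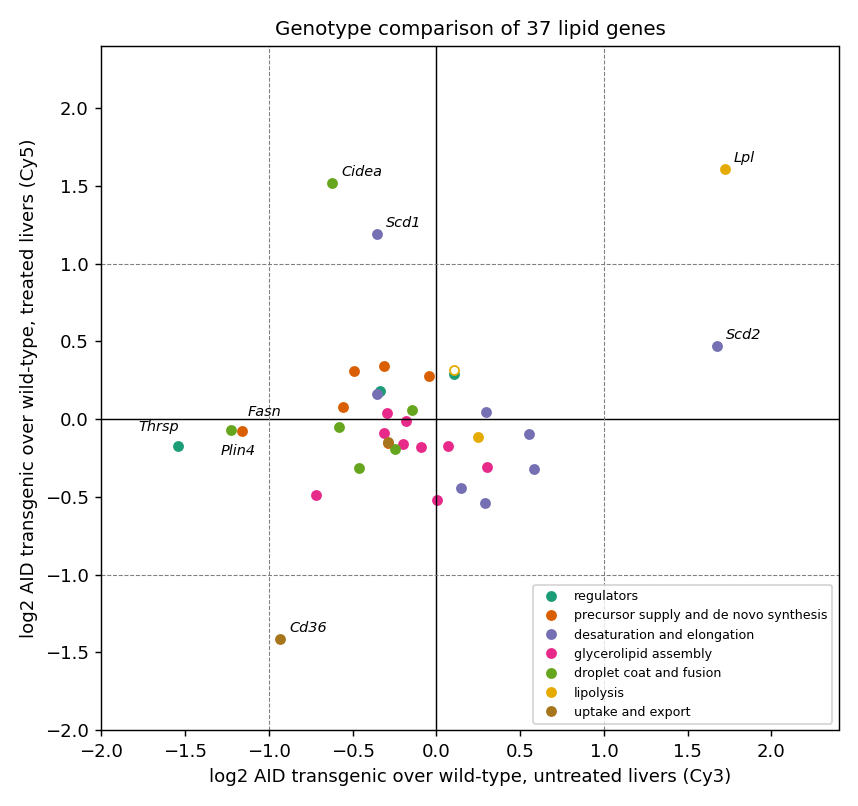
Log2 AID transgenic over wild-type in untreated livers (x axis) and in treated livers (y axis) for the 37 genes, coloured by role, with dashed lines at 2-fold. The open symbol is Pnpla3, which was not well above background in either untreated liver. Thrsp, Plin4 and Fasn lie far left near 0 on the y axis, Scd1 and Cidea high and left of 0, and Lpl high on both axes.

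A second list of genes of lipid metabolism held some with the same arrangement of levels as Thrsp. It held 65 genes, 64 of which were measured on each array. At 2-fold, 3 of 64 were higher and 4 lower in wild-type liver, and 2 higher and 3 lower in AID transgenic liver, with a median of -0.03 on both arrays. Over all genes these shares were 1.86% and 1.65%, and 1.22% and 0.947%. G0s2, an inhibitor of adipose triglyceride lipase, had log2 levels of 11.56 and 9.97 in untreated and treated wild-type liver and of 9.91 and 9.92 in the AID transgenic livers. As with Thrsp, the untreated wild-type liver stood above the other 3. The ratios of G0s2 were -1.59 ± 0.25 and 0.01 ± 0.20, and its log2 value of AID transgenic over wild-type was -1.66 between untreated livers. Pklr, the liver pyruvate kinase and a target of ChREBP, had -1.04 ± 0.24 and 0.38 ± 0.21, and -1.02 between untreated livers. Fitm1, which helps droplets form, had -2.36 ± 0.32 and -1.36 ± 0.26, and -1.24 between untreated livers.

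Other named members of that list went with treatment or with genotype. Mogat2, a monoacylglycerol acyltransferase best known from the intestine, had a ratio of 3.06 ± 0.49 in wild-type liver and was at least 4.72-fold higher with treatment in AID transgenic liver, where the untreated level was dim. Gpat3, an acyltransferase of assembly, had 1.63 ± 0.26 and 0.78 ± 0.22. Elovl3, an elongase known to be higher in male mouse liver, had -4.27 ± 0.48 in wild-type, where the sex-linked shift lies, and -1.99 ± 0.27 in AID transgenic liver. Angptl8, an insulin-responsive inhibitor of lipoprotein lipase, was higher in AID transgenic than in wild-type liver by 1.65 untreated and 2.30 treated on the log2 scale. It thus differed between the genotypes in both treatments, as Lpl did. Lipc, the hepatic lipase gene, had -0.55 and -1.13 ± 0.25 with treatment. The lipoprotein receptor gene Vldlr had 1.76 ± 0.33 in wild-type liver, with an SD of 1.51 between its probes.

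**Figure D4:**
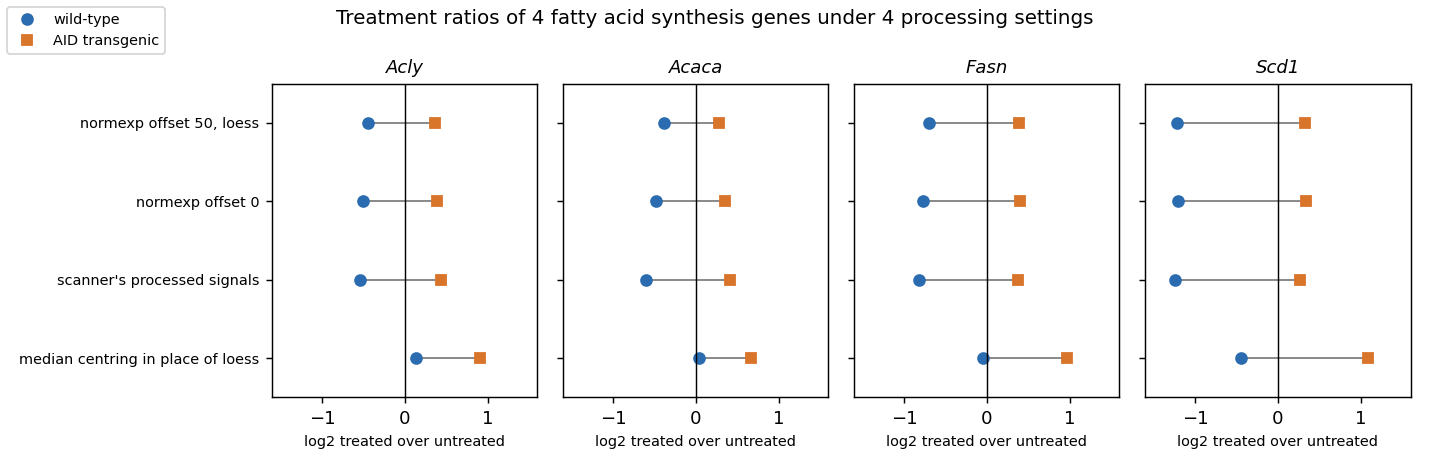
Log2 treated over untreated ratio (x axis) of Acly, Acaca, Fasn and Scd1 under 4 processing settings, with circles for the wild-type and squares for the AID transgenic array, 1 value each. The AID transgenic value lies to the right of the wild-type value in every panel and setting, and with median centring both move right, so that Acly (0.13) and Acaca (0.04) of the wild-type array pass 0.

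The opposite signs of Acly, Acaca, Fasn and Scd1 depended on where 0 was set, and the gap between the arrays did not. Under median centring the wild-type ratios were 0.13 for Acly, 0.04 for Acaca, -0.05 for Fasn and -0.44 for Scd1, and the AID transgenic ratios 0.91, 0.66, 0.97 and 1.08. Relative to the median of all genes, the 4 genes remained below in wild-type and above in AID transgenic liver under each of the 8 alternatives run. The filters on dim probes, the naming and the outlier spots left their ratios unchanged or nearly so. The brightest probe could change only Acly and Acaca, since Fasn and Scd1 had 1 probe each. The offset of 0, the processed signals and median centring moved the ratios of all 4. Of the 2-fold calls named above for the 37 genes, those lost under any alternative were Scd1 in wild-type and Lpin2 and Plin4 in AID transgenic liver, each under median centring. Cidea had no value in the 3 comparisons that called it when every channel had to be well above background.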

How the data were processed

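RNA of wild-type and AID transgenic mouse liver was read on 2 Agilent 2-colour arrays, with treated liver in Cy5 and untreated liver in Cy3, per the labels. The deposited scanner files hold mean and background signals as intensity values, with processed intensities that the software had background-subtracted and dye-normalized, per the file headers. The deposited log10 ratio is red over green processed signal, and its deposited error is a score from the software's error model in log10 units. The headers name Feature Extraction 10.7.3.1, while the submitters' processing notes name 10.5.1.1. A deposited value table equals the scanner's log ratio on all 44397 features of each array, has a median of 0 and adds no other values.

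Here, mean signals were corrected by normexp with an offset of 50 and normalized by loess within arrays in limma 3.58.1 under R 4.3.3. Aquantile normalization between arrays was used for levels and genotype comparisons, which makes the log2 levels of channels comparable but leaves dye effects in them. Control spots and 197 and 207 outlier spots of the wild-type and AID transgenic array were left out. Spots of 1 probe were averaged, and a gene is the mean of its probes. The deposited errors were converted from log10 to log2. The normalization was tested on simulated data. Further steps used Python 3.11.15 with pandas 2.3.3 and numpy 2.4.6.

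Of 39429 probes, 25924 were named by current symbol, 3993 by synonym and 263 by accession through RefSeq names of GRCm38.p6, and 9249 stayed unnamed. All 51 probes of the 37 genes matched by symbol. Probe coordinates are those of the file headers' build, mm9, and promoters those of RefSeq on GRCm38.p6. Of 43020 non-control spots, Cy3 signals were well above background on 56.0% (wild-type) and 53.9%, and Cy5 signals on 68.4% and 68.8%. There was 1 array per genotype, both on 1 slide and scan, so a rule of size (at least 2-fold) replaced any test, and precision is limited by the number of arrays. Where the dimmer channel did not rise well above background, folds are lower bounds set against that gene's own level or the channel's lowest level called well above background, whichever is higher. Such bounds are open to dye bias. Genes named are the listed genes at 2-fold in any comparison, those of opposite sign on the arrays, and the role groups' other genes in brief. From the second lipid list, the genes at 2-fold are named. The genes and lists were chosen with earlier results of these data known. Alternatives changed the offset, the background and dye correction, loess, the between-array step, the filter on dim probes, the probe summary, the naming and the outlier spots.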

Additional observations from a re-analysis of the deposited data

Results flagged for a closer look

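For 5 of the 37 genes the treatment ratios of the 2 arrays lay on opposite sides of 0, each by more than its scanner error. None of these differences was tested, since there was 1 array per genotype. The count of such genes over the whole array is not given here, so 5 of 37 has no share beside it. The difference, AID transgenic minus wild-type on the log2 scale, was 0.80 for Acly, 0.65 for Acaca, 1.09 for Fasn, 1.55 for Scd1 and 2.14 for Cidea. Cidea rested on a treated wild-type level that was not well above background. With median centring, Acly and Acaca had wild-type ratios above 0 (0.13 and 0.04), and the difference stayed above 0 for the 5 genes under 7 of the 8 alternatives. Under the other, which asks for every channel well above background, it was above 0 for the 4 genes left, since Cidea has no value there. The filters on dim probes, the naming and the outlier spots left the ratios of the genes measured unchanged or nearly so. The treated wild-type liver, which enters all 5 values, was also the liver with the sex-linked shift, whose part was not tested.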

How the results depend on the processing

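Of the counts and medians over the 37 genes, 114 values under the alternatives stayed within 1.5 times the count reported, or moved by less than the median scanner error. The median of wild-type liver changed sign under median centring, also relative to all genes (-0.20 with loess). Median centring in place of loess gave 8 genes at least 2-fold higher in wild-type liver (2 with loess) and 7 in AID transgenic liver (2), 1 lower in AID transgenic liver (3), and medians of 0.42 (-0.17) and 0.56 (0.05). It moved the median of all genes to 0.35 and 0.34, and relative to these the medians of the 37 genes were 0.08 and 0.22. A normexp offset of 0 gave 5 genes higher in AID transgenic liver (2) and 6 lower in untreated AID transgenic than wild-type liver (3). The scanner's processed signals gave 5 and 7 for these, and 2 lower in treated AID transgenic than wild-type liver (1). The brightest probe of each gene gave 4 higher in AID transgenic liver and 2 for which the difference was at least 2-fold downward (1). The cause of these moves was not tested. The numbers called among all genes moved as well: in wild-type liver 310 were higher and 274 lower, 782 and 406 with an offset of 0, 1576 and 605 with processed signals, and 1727 and 102 with median centring. In AID transgenic liver the numbers were 203 and 158, then 620 and 269, 1517 and 473, and 1357 and 53. No paired analysis was possible because there was 1 array per genotype and its number only names it. No array could be left out for the same reason. The slide was not run as a block, since both arrays lay on 1 slide. Dim genes such as Cidea depend most on the background step, with a wild-type ratio from -5.35 to -1.51 over the 7 alternatives that measure it.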
